A study of Mus musculus with 6 samples.

Results

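Local clotting and its dissolution were examined through 7 genes, F3, Tfpi, Thbd, Thbs1, Plau, Plaur and Plat, taken from the 34745 genes of the deposited liver expression table because their gene names equal those listed. All 7 were among the 13734 genes that passed a filter on low counts and were tested. The livers came from wild-type mice of the C57BL/6J strain, aged 8 to 10 weeks and fasted for 12 hours. They had received a single intraperitoneal overdose of acetaminophen (APAP, 300 mg/kg, 12 hours before sampling) or saline. Labels give 3 samples per group, and 5 libraries were analysed here, with APAP1 and APAP3 set against WT1, WT2 and WT3. The WT columns carry only the wild-type genotype that all the mice share in their names. They were taken for saline since every other column is named for APAP. Nothing in the labels says how many animals stood behind a library, so the p-values measure the spread between these libraries.

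Clotting starts where tissue factor, the membrane protein encoded by F3, meets factor VII of the plasma. Tissue factor pathway inhibitor (Tfpi) shuts this complex off, and thrombomodulin (Thbd) on endothelial cells turns thrombin from a clotting enzyme into an activator of protein C. Fibrin is dissolved by plasmin, which urokinase (Plau, held on cells by its receptor Plaur) and tissue plasminogen activator (Plat) release from plasminogen. Thrombospondin 1 (Thbs1) is a matricellular and platelet granule protein that binds fibrinogen and activates latent TGF-beta. The liver makes most of the soluble factors, while the initiators and activators studied here are mainly known from endothelial, stromal, ductal and myeloid cells and from stressed hepatocytes.

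Promoter sequence in the RefSeq table (GRCm38.p6) was matched for 3 of the 7 genes, F3, Plaur and Tfpi. The 250 bases before the annotated start are printed for F3 and Plaur, both of which lay higher in each APAP library than in each saline library, because each holds the letters TGANTCA, the motif of the AP-1 transcription factors, set here in capitals. Coordinates are those of the plus strand, on which both genes lie, and the bases read 5′ to 3′.
F3, chr3:121723287-121723536: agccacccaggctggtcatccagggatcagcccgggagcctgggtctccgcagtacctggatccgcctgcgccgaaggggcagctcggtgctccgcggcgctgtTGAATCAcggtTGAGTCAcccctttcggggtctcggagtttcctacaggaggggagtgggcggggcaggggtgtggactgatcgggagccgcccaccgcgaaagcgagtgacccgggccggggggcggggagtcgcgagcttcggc
Plaur, chr7:24462233-24462482: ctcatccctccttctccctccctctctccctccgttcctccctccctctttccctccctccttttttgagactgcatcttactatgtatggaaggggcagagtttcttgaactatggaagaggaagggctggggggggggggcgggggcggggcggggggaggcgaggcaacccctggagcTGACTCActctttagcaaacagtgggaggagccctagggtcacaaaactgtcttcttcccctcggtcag
The F3 window holds the motif at 2 places, beginning 146 and 135 bases before the start, and the Plaur window at 1 place, beginning 69 bases before it. TGANTCA was found on either strand in 6.75% of the 32851 promoters of the same length. Both windows of Tfpi lack these letters. Of the other motifs searched, the EGR letters GCGGGGGCG stand in the Plaur window (GCGTGGGCG or GCGGGGGCG in 3.06% of all promoters), CCACACCC, the KLF letters, on the reverse strand of the F3 window (3.2%), and TATAAA, the TATA box, on the reverse strand of 1 Tfpi window (12.4%). The letters TGACGTCA (CRE, 1.55%) and GAANNTTC (paired heat shock units, 6.69%) and the NF-kB motif (1.41%) were in none of the 4 windows of these genes. These matches describe letters only, and binding was not measured.

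The libraries held between 13378445 and 15976339 counts, and 3 counts, used as the detection floor, amounted to 0.176 to 0.269 CPM (read counts scaled to a common library size, with edgeR's TMM factors). The reads carry no molecular identifiers, so this floor covers counting error only. Sex-linked genes separated the groups completely, although male mice are named in the methods. Xist stood at 0.763 and 1.73 CPM in the treated livers and between 289.3 and 913.4 CPM with saline, whereas the Y-linked Ddx3y stood at 61.6 and 78.9 CPM after treatment and at no more than 1 count in any saline library. Treatment and sex-linked expression cannot be told apart in any comparison given here. Fewer cells of a type and less RNA per cell cannot be told apart either in these bulk samples.

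Of the 7 genes, 2 rose with APAP at an adjusted p under 0.05 (edgeR's quasi-likelihood test), Thbs1 and Plaur, and none fell. Among all genes tested, 7.23% were called at this threshold, 3.7% higher and 3.53% lower with APAP. The study names a 1.5-fold change together with P under 0.05 and does not say whether P was adjusted. With P before adjustment, Plat, Plau and F3 were past these thresholds as well. Then 5 of the 7 were higher, against 12.4% of all genes tested that were higher at these thresholds. All 7 had a fitted log2 fold change above 0, as had 52% of all genes tested, and Thbs1, Plaur and Plat reached 2 on the log2 scale, as did 3.4%. The direction of Thbd turned when APAP3 was left out. In the 5 genes past the unadjusted threshold both APAP libraries lay above all 3 saline libraries, which held for 24% of all genes tested. Plau, Plaur and Plat passed the filter on low counts only through the APAP libraries, since 0, 1 and 1 of the 3 saline libraries reached the level the filter asks of 2 libraries. A difference in these 3 genes was therefore a condition of their being tested, and the counts of members are descriptions.

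**Figure D1:**
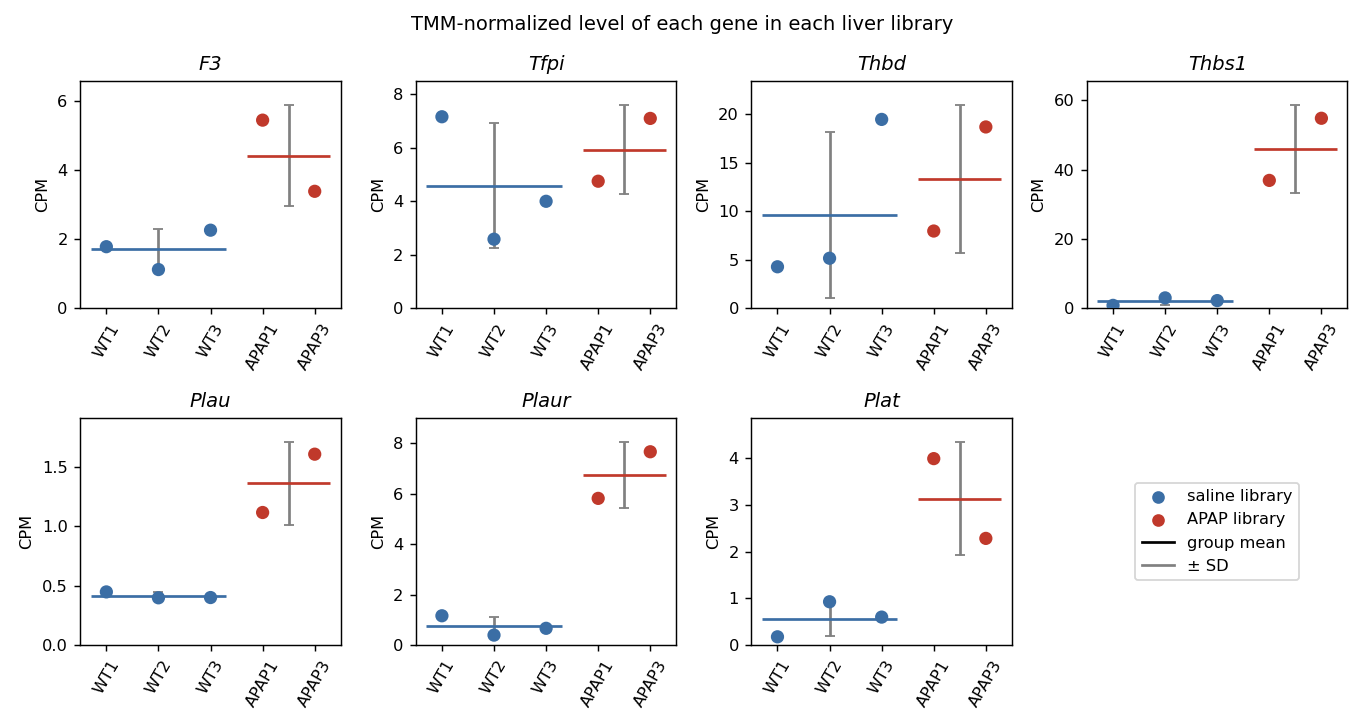
Level of each of the 7 genes in each liver library, in CPM on a linear axis that starts at 0 (blue, saline libraries WT1 to WT3; red, APAP1 and APAP3; line, group mean; grey bar, SD). The groups are apart for F3, Thbs1, Plau, Plaur and Plat, and they overlap for Tfpi and Thbd, where WT3 (19.5 CPM) and APAP3 (18.7 CPM) stand high together.

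Tissue factor was the first gene of the initiation step. F3 (ENSMUSG00000028128) lies on chromosome 3 of GRCm38 from 121723537 to 121735048 on the plus strand. It was at 5.46 CPM in APAP1 and 3.40 CPM in APAP3 and at 1.79, 1.13 and 2.27 CPM in WT1, WT2 and WT3. The lower APAP library still lay above the highest saline library. In CPM, though not as a ratio, the APAP libraries differed from each other by more than the saline libraries did. The APAP mean of 4.43 ± 1.46 CPM (SD, n = 2) was 2.56 times the saline mean of 1.73 ± 0.573 CPM (SD, n = 3). Its log2 fold change of 1.35 (standard error, SE, 0.45) did not reach significance by edgeR's quasi-likelihood test, with an adjusted p of 0.124. Leaving out APAP1 lowered it to 0.97, and its adjusted p was not under 0.05 in any of the 13 alternative fits, between 0.0667 and 0.513. Each library held between 17 and 93 counts of F3.

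The inhibitor of that step was not called either. Tfpi (ENSMUSG00000027082; chromosome 2, 84432855 to 84476775, minus strand) was at 4.75 and 7.10 CPM in APAP1 and APAP3 and at 7.16, 2.59 and 4.005 CPM in WT1, WT2 and WT3. The highest library was a saline one, WT1, and the groups overlapped. The log2 fold change was 0.38 (SE 0.47; edgeR's quasi-likelihood test, adjusted p = 0.671), and single libraries moved it between 0.05 and 0.86 when left out. Within a library, the log2 ratio of F3 to Tfpi counts (0.5 added to each) needs no normalization between libraries. It was 0.20 in APAP1, −1.06 in APAP3, and −1.97, −1.17 and −0.81 in WT1, WT2 and WT3, so that APAP3 lay among the saline libraries and APAP1 alone held more counts of F3 than of Tfpi. The difference of the group means, 0.89, had p = 0.4 in a two-sided exact permutation test over the libraries, in which 2 against 3 libraries cannot go below 0.1. Without APAP1 the difference was 0.26, and without APAP3 it was 1.52.

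Thrombomodulin, the brake on thrombin at the vessel wall, divided the libraries in another way. Thbd (ENSMUSG00000074743; chromosome 2, 148404466 to 148408188, minus strand) was at 7.98 CPM in APAP1 and 18.7 CPM in APAP3, and at 4.298, 5.18 and 19.5 CPM in WT1, WT2 and WT3. One library of each group, APAP3 and WT3, was high, and the other libraries were below 8 CPM. The spread within each group (SD 7.59 CPM with APAP, n = 2, and 8.53 CPM with saline, n = 3) exceeded the difference between the means of 13.3 and 9.65 CPM. The log2 fold change of 0.46 (SE 0.69; edgeR's quasi-likelihood test, adjusted p = 0.730) turned to −0.29 without APAP3 and became 1.49 without WT3, so its direction rests on single libraries. The summed level of 13 endothelial markers was 215 CPM in APAP1, 334 CPM in APAP3, 368 CPM in both WT1 and WT2 and 222 CPM in WT3. Single markers of the list can run otherwise than the sum, and the part of endothelial cells in the Thbd levels was not tested.

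Thrombospondin 1 showed the widest separation of the 7 genes. Thbs1 (ENSMUSG00000040152; chromosome 2, 118111876 to 118127133, plus strand) was at 36.9 and 54.8 CPM in APAP1 and APAP3, from 629 and 888 counts. In WT1, WT2 and WT3 it was at 0.895, 3.05 and 2.27 CPM, from 10, 46 and 34 counts. Every APAP library was thus more than 10 times the highest saline library. The means of 45.9 ± 12.7 CPM (SD, n = 2) and 2.07 ± 1.09 CPM (SD, n = 3) stood 22.1-fold apart, and the log2 fold change was 4.44 (SE 0.45; edgeR's quasi-likelihood test, adjusted p = 0.00474). It ranked 109 among the 13734 fitted log2 fold changes. The call held in all 13 alternative fits, in which the log2 fold change was between 4.11 and 4.82. A noncoding gene on the opposite strand, Gm29233, overlaps Thbs1 and had 0 counts in all 5 libraries.

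The urokinase receptor was the other gene that passed the test, which it entered only through its APAP libraries. With at least 10 counts required in every library it was not tested. Plaur (ENSMUSG00000046223; chromosome 7, 24462484 to 24475968, plus strand) was at 5.81 and 7.66 CPM in APAP1 and APAP3 and at 1.16, 0.398 and 0.667 CPM in WT1, WT2 and WT3. The saline values come from 13, 6 and 10 counts, close above the floor, while the APAP libraries held 99 and 124 counts. The means were 6.73 ± 1.31 CPM (SD, n = 2) with APAP and 0.743 ± 0.389 CPM (SD, n = 3) with saline, a 9.06-fold difference. Its log2 fold change was 3.20 (SE 0.49; edgeR's quasi-likelihood test, adjusted p = 0.0166), rank 194 of all genes tested. The call was lost, with adjusted p from edgeR of 0.0668, 0.0747 and 0.0696, when APAP1, APAP3 or WT2 was left out, while the log2 fold change stayed between 2.88 and 3.65.

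Urokinase itself was scarce. Plau (ENSMUSG00000021822; chromosome 14, 20836662 to 20843388, plus strand) had 19 and 26 counts in the APAP libraries and 5, 6 and 6 counts in the saline libraries, which is 1.115 and 1.61 CPM against 0.448, 0.398 and 0.400 CPM. The groups did not overlap, in a gene that entered the test only through its APAP libraries. The saline libraries lay within 0.05 CPM of each other. The mean was 1.36 ± 0.347 CPM (SD, n = 2) with APAP and 0.415 ± 0.0280 CPM (SD, n = 3) with saline, 3.27-fold apart. With so few counts the log2 fold change of 1.69 had a standard error of 0.56 and an adjusted p of 0.122 in edgeR's quasi-likelihood test. It passed only in edgeR's likelihood ratio test (adjusted p = 0.0481), and its adjusted p lay between 0.0481 and 0.445 over the 12 alternatives that could be fitted.

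Tissue plasminogen activator, the activator that works on fibrin, lay on the same side with a wider spread. Plat (ENSMUSG00000031538; chromosome 8, 22757744 to 22782847, plus strand) was at 3.99 and 2.28 CPM in APAP1 and APAP3 and at 0.179, 0.929 and 0.601 CPM in WT1, WT2 and WT3. WT1, with 2 counts, was below the floor, and Plat entered the test only through its APAP libraries. The lower APAP library was above the highest saline library, and the means of 3.14 ± 1.21 CPM (SD, n = 2) and 0.570 ± 0.376 CPM (SD, n = 3) were 5.51-fold apart. The log2 fold change of 2.41 (SE 0.67) did not reach significance by edgeR's quasi-likelihood test, with an adjusted p of 0.0790. It passed in edgeR's likelihood ratio and exact tests (adjusted p = 0.00736 and 0.00903), in DESeq2 (0.0164) and without the filter on low counts (0.0484 from edgeR). With any library left out it did not pass, at values between 1.96 and 2.94. The log2 ratio of Plau to Plat counts was −1.81 and −0.50 in APAP1 and APAP3 and 1.14, −1.16 and −0.55 in WT1, WT2 and WT3. These ratios overlapped between groups (difference −0.97, two-sided exact permutation test, p = 0.5), and the difference was −0.31 without APAP1 and −0.30 without WT1.

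**Figure D2:**
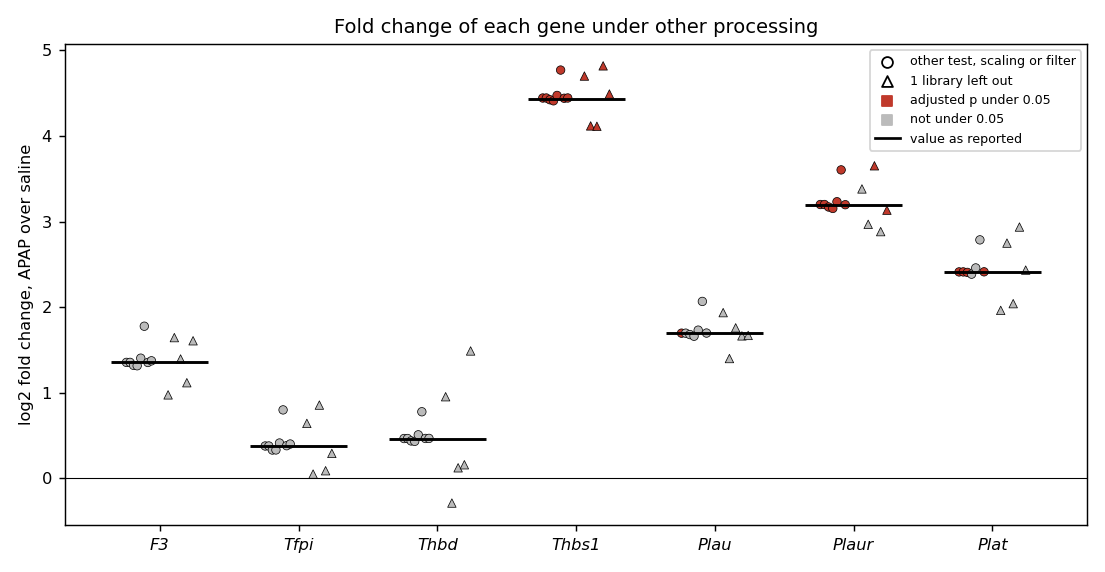
Log2 fold change of each of the 7 genes, APAP over saline, as reported (black line), under other tests, scalings or filters (circles) and with 1 library left out (triangles), red where the adjusted p was under 0.05. Thbs1 is red throughout, Plaur loses the call in 3 fits with 1 library left out, and the Thbd values run from −0.29 to 1.49.

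Levels of the 7 genes can be set against each other only per length, so CPM was divided by the length of each gene's merged exons (GENCODE M21, between 2367 and 6241 bases). On this scale, CPM per kilobase, the order of the saline means was Thbd (2.59 ± 2.29), Tfpi (0.839 ± 0.429), F3 (0.684 ± 0.227), Thbs1 (0.341 ± 0.180), Plaur (0.284 ± 0.148), Plau (0.176 ± 0.0118) and Plat (0.0913 ± 0.0602; SD, n = 3). Only Plau and Plat, among neighbours in that order, did not overlap over the saline libraries. With APAP the order was Thbs1 (7.55 ± 2.09), Thbd (3.59 ± 2.04), Plaur (2.57 ± 0.499), F3 (1.75 ± 0.577), Tfpi (1.09 ± 0.304), Plau (0.575 ± 0.146) and Plat (0.503 ± 0.193; SD, n = 2). Here Thbd overlapped with Plaur and Plau with Plat, and the other neighbours were apart in the 2 libraries. On this scale Thbs1 was thus the fourth of the 7 in the saline livers and the highest in the APAP livers. Merged exons join all annotated transcripts of a gene, and which of these were expressed was not measured. In CPM, not divided by length, Plat was above Plau in the means. The values were 0.570 against 0.415 CPM with saline and 3.14 against 1.36 CPM with APAP. The longest protein-coding transcripts of the 7 genes share no exact 50-base stretch with a transcript of another gene. Copies that differ at single bases were not searched for. Coordinates in the table equal those of GENCODE M21 for all but Plau and Plat, which differ slightly at both ends.

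Other genes of the pathway were read from 5 lists with 47 genes, of which 43 were tested. The adjusted p was under 0.05 for 5 genes that were higher and 2 that were lower with APAP, against 3.7% and 3.53% of all genes tested. Of the 5 that were higher, F13a1 and Serpinb2 were in the test only through their APAP values. The median log2 fold change of the lists was −0.42, and that of all genes tested was 0.03. Each of these 7 calls came from edgeR's quasi-likelihood test, and that of Anxa2 alone held with any library left out. Without APAP1, and likewise without WT2, 1 gene of the lists was called, without APAP3 2 and without WT1 4.

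Among 17 clotting factors, the partner of tissue factor fell. F7, which encodes factor VII, was at 38.0 and 40.9 CPM in APAP1 and APAP3 and at 135.9, 97.5 and 75.7 CPM in WT1, WT2 and WT3, a log2 fold change of −1.38 (SE 0.30; edgeR's quasi-likelihood test, adjusted p = 0.0404). F13b, the carrier subunit of the fibrin-crosslinking factor XIII, fell by 1.57 on the log2 scale (adjusted p = 0.0221), while F13a1, its catalytic subunit, which myeloid cells and megakaryocytes make, rose by 2.86 (adjusted p = 0.0211, from 0.668 to 4.92 CPM in the means). Of the 17 tested, 1 rose and 2 fell, and the median was −0.56. With the fold change of 1.5 and the unadjusted P, 8 were lower and 2 were higher, against 11.2% and 12.4% of all genes tested. F13a1 passed the filter on low counts only through the APAP libraries, as 1 of the 3 saline libraries reached its level. The call of F7 was lost without APAP1, APAP3, WT1 or WT2, that of F13a1 without the same 4, and that of F13b without APAP1, APAP3 or WT2.

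In the list of clotting inhibitors, 1 of 8 genes tested passed. Procr, the endothelial receptor that presents protein C to thrombomodulin, was at 7.57 and 8.65 CPM in the treated livers, against 1.43, 0.796 and 1.27 CPM in WT1, WT2 and WT3. It rose by 2.80 on the log2 scale (SE 0.37; edgeR's quasi-likelihood test, adjusted p = 0.0104), and without APAP1, APAP3 or WT2 the adjusted p was between 0.0527 and 0.0558. The receptor of protein C therefore passed where its partner Thbd, with overlapping groups, did not. The difference between the changes of these genes was not tested. No gene of this list fell at the adjusted p, although 6 of the 8 had both APAP libraries below all saline libraries, which held for 20.1% of all genes tested.

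The fibrinolysis list had 3 of 11 genes that rose and none that fell, 1 of the 3, Serpinb2, having passed the filter on low counts only through the APAP libraries. Anxa2 and S100a10 encode the subunits of the cell surface complex that binds plasminogen together with tissue plasminogen activator. Anxa2 was at 90.6 and 72.0 CPM in the treated livers, against 9.76, 9.09 and 7.14 CPM with saline (log2 fold change 3.23, SE 0.23; edgeR's quasi-likelihood test, adjusted p = 0.00182). S100a10 was at 268 and 186.7 CPM in the treated livers, against 54.4, 53.3 and 33.7 CPM with saline (log2 fold change 2.27, adjusted p = 0.0100), a call lost without APAP1 or WT2. Serpinb2, an inhibitor of urokinase and tissue plasminogen activator, had 17 and 29 counts with APAP and 0 in every saline library, at least 5.19-fold higher when set against the highest saline floor of 3 counts per library. Its adjusted p was 0.0374 in edgeR's quasi-likelihood test, and the call was lost without any of the libraries but WT3.

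Plasminogen, the substrate of Plau and Plat, was read as well, chosen after its values were seen. Plg was at 1239 and 1550.5 CPM in APAP1 and APAP3 and at 3214, 2519 and 2154 CPM in WT1, WT2 and WT3, with no overlap. Its log2 fold change was −0.91 (SE 0.33; edgeR's quasi-likelihood test, adjusted p = 0.147), and DESeq2 alone called it (adjusted p = 0.00948). Both APAP libraries lay below all saline libraries for Plg, as for 20.1% of all genes tested. Plau and Plat lay higher in each APAP library, but they were in the test only through those libraries. None of the 3 passed the adjusted threshold.

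Of the protease-activated receptors, 2 of 4 were tested and neither passed. Both, F2r and F2rl1, were higher at the unadjusted thresholds, against 12.4% of all genes tested. F2rl1 passed the filter on low counts only through the APAP libraries, as 0 of the 3 saline libraries reached its level. F2r, the most abundant, was at 19.3 and 34.0 CPM in the treated livers, against 16.2, 10.95 and 11.7 CPM with saline (log2 fold change 1.04, edgeR's quasi-likelihood test, adjusted p = 0.0912). Without APAP3 its value was 0.57. No thrombospondin other than Thbs1 and no thrombospondin receptor on the list passed, with 0 of 5 tested at the adjusted p and 0 at the unadjusted thresholds. Cd47, the most abundant, was at 69.4 and 69.2 CPM in the treated livers, against 91.7, 78.1 and 77.0 CPM with saline (log2 fold change −0.25, edgeR's quasi-likelihood test, adjusted p = 0.498), a direction that turned with scaling to library size only.

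**Figure D3:**
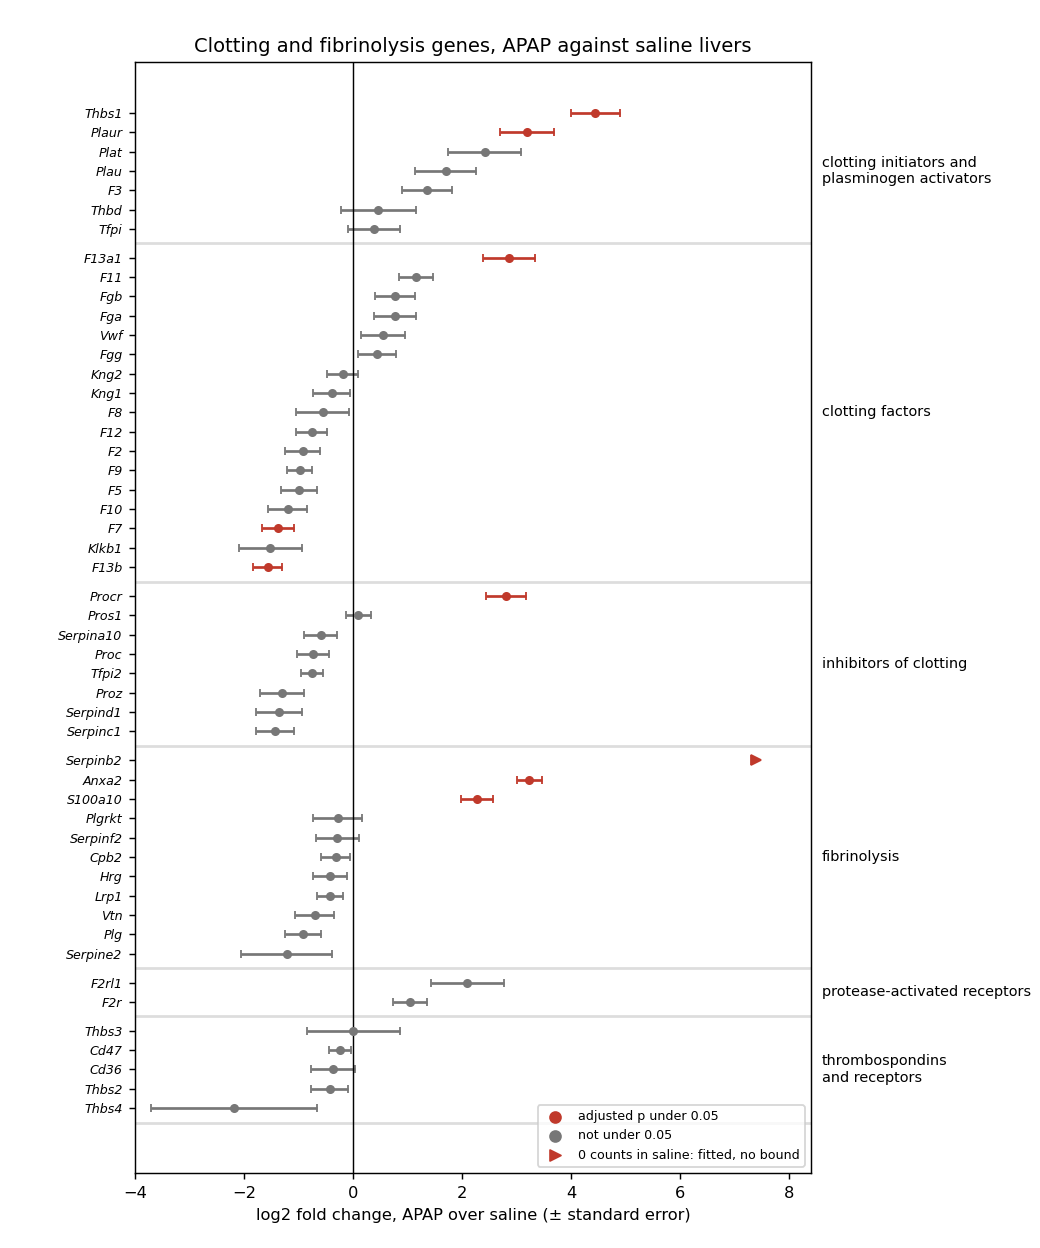
Log2 fold change (APAP over saline, ± standard error) of the 7 genes and of the 43 tested genes of 5 pathway lists, red where the adjusted p was under 0.05. The triangle marks Serpinb2, whose fitted value is no bound because it had 0 counts in saline. Thbs1 and Plaur of the 7, and F13a1, Procr, Serpinb2, Anxa2 and S100a10 of the lists, are red to the right of 0, and F7 and F13b are red to the left.

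The genes with the profile most like that of the called members were found by the root mean square difference of log2(CPM + 0.5) over the 5 libraries, after each profile was centred on its saline mean. Of 13733 genes compared, the nearest to Thbs1 were Mmp3 (0.24), Mmp13 (0.35) and Scn8a (0.45). These include matrix-degrading enzymes, and Mmp3 was at 11.9 and 15.9 CPM in APAP1 and APAP3 and at most 0.465 CPM in a saline library. All 3 had no count in WT1, so their profiles depend on the constant added. Nearest to Plaur were Cyb561 (0.17), Mlkl (0.18), the effector of necroptosis, and Procr (0.19), with 71 genes within 0.5 on this scale against 5 for Thbs1. Among the 7 genes themselves, F3 and Plau were the closest pair (0.41) and Tfpi and Thbs1 the most distant (2.57). In the saline libraries Plau lay between 0.398 and 0.448 CPM, below the added 0.5, so its distances depend on that constant too. Plaur was at 0.398 CPM in WT2, and the same holds for its distances.

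Markers of some cell types differed between the groups, while the sums of others overlapped. Summed over 10 neutrophil genes, the level was 83.2 and 128 CPM in the APAP libraries and between 5.38 and 9.41 CPM in the saline libraries. Of the 9 tested, 7 rose, among them S100a9, S100a8, Csf3r and Retnlg, where 3.7% of all genes tested were called higher. Of these 9, 7 passed the filter on low counts only through the APAP libraries, 5 of the called genes among them, so this count is a description. S100a9 and Csf3r were the called genes that also reached the level of the filter in the saline libraries. The defining marker Ly6g was at 0 counts in every saline library and not tested. The 7 monocyte genes summed to 103 and 163 CPM with APAP and to between 79.6 and 113 CPM with saline, with Chil3, which passed the filter only through the APAP libraries, and Ccr2 called and the abundant Lyz2 not. The 6 cholangiocyte genes summed to 347 and 355 CPM against 47.0 to 52.2 CPM, with Spp1 and Sox9 called, and Spp1 alone gave 276 and 313 CPM of the APAP sums. Krt19 was at 23.6 CPM in APAP1 but at 2.72 CPM in APAP3, against 2.54 CPM in WT3. Epcam was at 8.22 and 2.41 CPM, against 2.34 CPM in WT3. Krt7 was at 6.28 and 2.10 CPM, against 1.13 CPM in WT2, its highest saline library. All 5 cholangiocyte genes tested had both APAP libraries above all saline libraries, which held for 24% of all genes tested. Among 13 endothelial, 10 stellate and 8 Kupffer cell genes none was called, and the sums overlapped between the groups. The stellate sum was 387 and 544 CPM with APAP and between 542 and 670 CPM with saline. The sums of 5 mesothelial genes were 6.24 and 7.22 CPM against 3.13 to 5.38 CPM. Platelet granules carry thrombospondin 1, and the sums of 6 platelet genes were 5.31 and 6.81 CPM against 2.85 to 5.47 CPM. No gene of either list was called. Of 3 platelet genes tested, 2 had both APAP libraries above all saline libraries, against 24% of all genes tested. These 2 had passed the filter on low counts only through the APAP libraries. The 6 hepatocyte genes summed to 63204 and 106388 CPM with APAP and to between 111327 and 151343 CPM with saline, with 0 called. Alb alone gave 51496 and 89712 CPM of the APAP sums. Of the 6 genes, 4 had both APAP libraries below all saline libraries, which held for 20.1% of all genes tested, and the others overlapped. At the unadjusted thresholds, 9 of 9 neutrophil, 5 of 7 monocyte and 5 of 5 cholangiocyte genes tested were higher, against 12.4% of all genes tested. Of the genes higher, 7 neutrophil and 2 monocyte genes had passed the filter on low counts only through the APAP libraries. In the other lists, 1 endothelial, 1 stellate, 1 Kupffer cell and 1 mesothelial gene were higher. Lower were 2 stellate and 3 hepatocyte genes, against 11.2% of all genes tested, and no platelet gene passed. The part of these cells in the changes of the 7 genes was not tested.

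**Figure D4:**
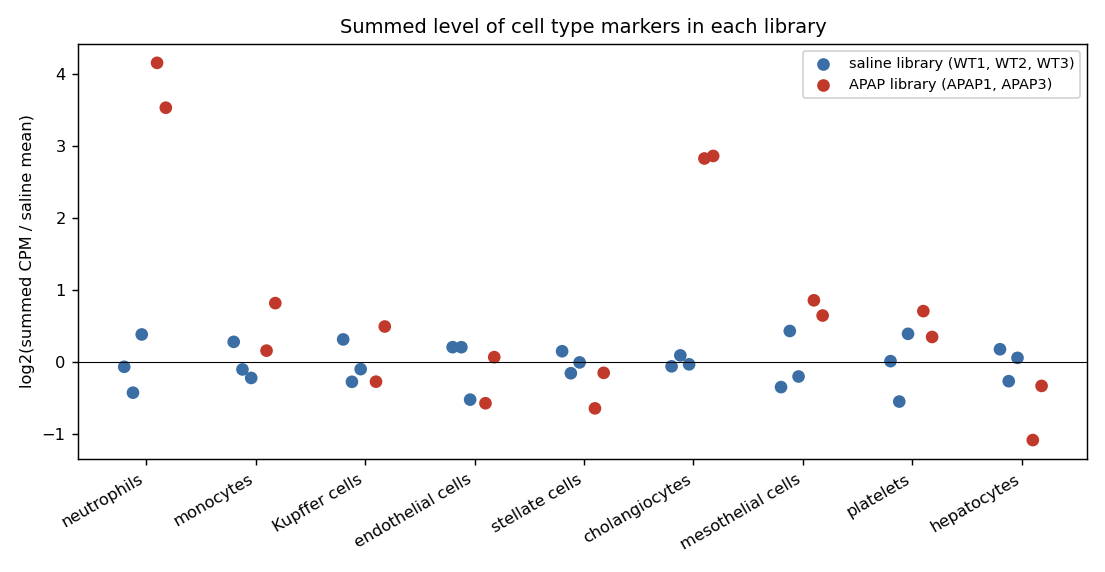
Summed CPM of 9 lists of cell type markers in each library, as log2 of the ratio to the mean of the saline libraries (blue, saline; red, APAP). The neutrophil and cholangiocyte sums of both APAP libraries lie far above the saline libraries, the latter sum being mostly Spp1, whereas endothelial and Kupffer cell sums overlap.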

How the data were processed

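Liver RNA libraries were made with the SMARTER mRNA-Seq kit per the labels and sequenced on an Illumina NovaSeq platform. Raw read counts, made with HISAT2 alignments, were deposited by the authors for each gene. Builds named in the submitters' processing notes are GRCm38 and mm10, and the annotation and strand setting are not given in the sources used here. The 5 columns of FPKM were not used. APAP replicate 2 was not analysed here.

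With edgeR 4.0.16 (R 4.3.3), low counts were removed by filterByExpr, set to a count of 10 and a total of 15. The rest were normalized by TMM and tested by glmQLFit and glmQLFTest with Benjamini-Hochberg adjustment over all 13734 genes. The planned design assumed 3 libraries in each group. Counts of library pairs within a group differed by more than sampling allows, the chi-square statistic over its degrees of freedom lying between 43.2 and 92.2. The fit was tested on simulated data. Standard errors were taken as the log2 fold change over the root of F. Python 3.11.15 read the annotation and promoters and drew the plots.

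The members and lists were chosen with earlier results of these data known. Named genes were the 7 members, every called gene of a pathway list or otherwise its most abundant gene, up to 4 called genes and the most abundant gene of a marker list, and the 3 nearest profiles of each called member. Epcam, F2rl1, Krt7, Krt19, Ly6g, Plg and the sex-linked genes stand outside this rule. Against the rule, the most abundant genes of the endothelial, stellate, Kupffer cell, mesothelial and platelet lists were not named. Alternatives were DESeq2 1.42.0, the exact and likelihood ratio tests of edgeR, 3 other scalings, 2 other filters and each library left out.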

Additional observations from a re-analysis of the deposited data

How the results depend on the processing

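The number of the 7 genes called was 2 and became 4 with edgeR's likelihood ratio test and 1 with at least 10 counts required in every library, a filter that left 4 of the 7 in the test and lowered the number past a fold change of 1.5 and the unadjusted P from 5 to 2. With each library left out in turn, these numbers were between 1 and 2 and between 3 and 6 (3 without APAP1). The 7 calls in the pathway lists became 15 with the likelihood ratio test, 15 with the exact test and 19 with DESeq2, and lay between 1 and 7 with a library left out. The ratio of F3 to Tfpi differed by 0.26 to 1.52 and that of Plau to Plat by −1.62 to −0.30 with a library left out, and by 0.87 and −0.94 with 1 count added. Over all genes, the 993 calls became 1835, 1776 and 2093 with the likelihood ratio test, the exact test and DESeq2, 235 without APAP1, 401 without APAP3, 510 without WT1 and 165 without WT2. Scaling to library size only raised the median of all genes from 0.03 to 0.42 and the share of higher calls from 51.2% to 77.8%, gave F3 1.78 and Thbs1 4.77, and ended the call of F7 (adjusted p = 0.0563 from edgeR). Of the fold changes of single named genes, 181 kept direction and side of the threshold, 24 no longer passed, 9 newly passed and 2 reversed, Thbd at −0.29 without APAP3 and Cd47 at 0.16 with library size only. The causes were not tested. In a fit without 1 APAP library, the other is assumed to vary like the saline libraries. No paired analysis was possible because the names of the saline columns do not match them to the numbered saline samples.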
